A study of Mus musculus with 6 samples.

Results

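The genes described are 36 genes of protein folding and stress sensing in the endoplasmic reticulum (ER), chosen by symbol from the table of all 49585 genes. They comprise the stress sensors with their transcription factor, the chaperones, the disulfide enzymes, the channel that brings new proteins into the ER and the machinery that returns misfolded proteins for degradation. The table held all 36, and all 36 passed the filter for testing, at least 1 FPKM (fragments per kilobase, relative to the total of the library) in at least 3 libraries. Expression was measured as poly(A) RNA in Tregs (regulatory T cells), a CD4 lineage marked by FOXP3 that dampens immune responses. They were sorted from spleens of C57BL/6 mice aged 7 weeks as B220-negative, CD4-positive and YFP-positive cells (the series' design adds CD25). All 6 cultures were then held on plate-bound antibodies against CD3 and CD28 for 24 hours. There were 3 libraries labelled Bach2-cKO, by that name a conditional knockout of Bach2, and 3 labelled WT; the comparison asked what loss of BACH2, a transcriptional repressor, changes in stimulated Tregs. Neither the driver of the knockout and of YFP nor the cells that lack BACH2 are named in the labels. Whether each replicate is a mouse of its own is not stated either, and the p-values therefore measure a spread between samples that may be technical only.

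Proteins bound for the cell surface or for secretion enter the ER through the SEC61 channel, are folded there by chaperones and disulfide enzymes, and are handed back to the cytosol for degradation (ER-associated degradation, ERAD) when folding fails. When unfolded protein builds up, 3 sensors in the ER membrane, IRE1 (gene Ern1), PERK (gene Eif2ak3) and ATF6, start the unfolded protein response. IRE1 splices the mRNA of the transcription factor XBP1, ATF6 is cut to release a transcription factor, and PERK slows translation and raises ATF4. XBP1 is best known among lymphocytes for its need in antibody-secreting plasma cells, and activated T cells also use this pathway. The values here are mRNA levels per gene and do not separate spliced from unspliced Xbp1.

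Read totals recovered from the FPKM steps were 27703735 to 31976067 in the Bach2-cKO libraries and 27697735 to 43884431 in the WT libraries, and none of the 36 genes had fewer than 318 reads in any library. Bach2 itself stood at 88.9, 104.5 and 120.8 FPKM in Bach2-cKO libraries, against 112, 111.4 and 99.4 FPKM in WT libraries. The groups overlapped (log2 fold change -0.05, SE 0.11, adjusted p = 0.812), so the direction of each comparison rests on the labels. The value sums all exons and the deleted part is not given, so it does not check them. Foxp3, the defining Treg transcription factor, stood at 112, 104 and 153.5 FPKM in Bach2-cKO libraries and at 127, 108 and 113 FPKM in WT libraries, and did not pass. Values by library are given for replicates 1, 2 and 3 in turn throughout.

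Of the 36 genes, 18 were higher in Bach2-cKO libraries and 0 were lower, by limma on log2(FPKM + 1) with Benjamini-Hochberg adjustment over the 13766 genes tested and a threshold of 0.05. Among all genes tested, 7.02% were higher and 8.31% were lower. The 18 others did not pass. At an unadjusted p under 0.05, 27 of the 36 were higher and 0 lower. The share of all genes tested at that unadjusted threshold was not counted, here or below. In 27 of the 36 genes all 3 Bach2-cKO libraries lay above all 3 WT libraries, against 15.5% of all genes tested, and in 0 they all lay below, against 20.1%. The median log2 fold change of the 36 was 0.30, with a range of 0.04 to 0.94, beside -0.02 over all genes tested. The 36 were chosen with earlier results of these data known, so these shares describe the list and do not test it. In bulk RNA, more cells that make these messages and more message per cell cannot be told apart.

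**Figure D1:**
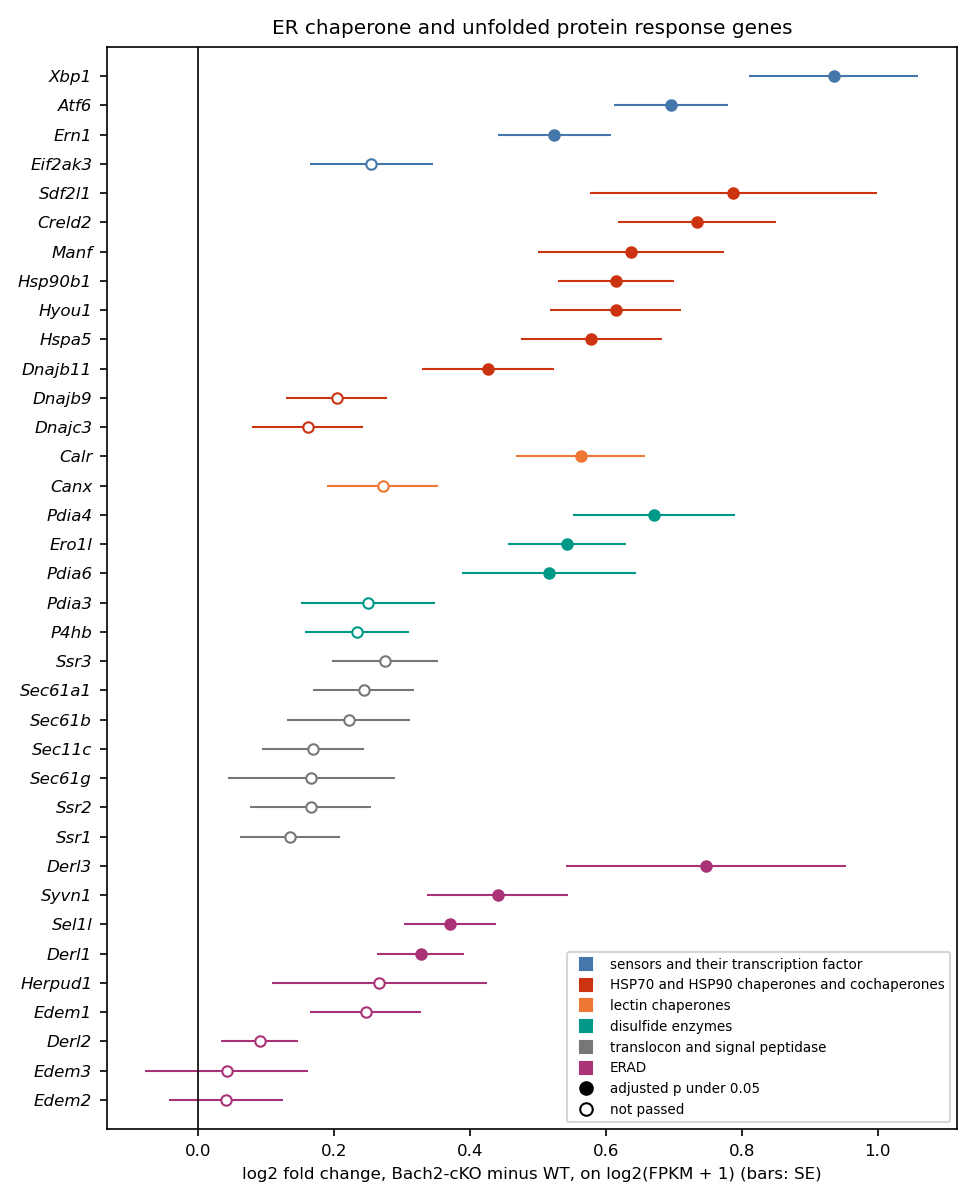
Log2 fold change (x axis, Bach2-cKO minus WT on log2(FPKM + 1), bars SE, 3 libraries a group) of the 36 genes (y axis), coloured by role. Filled points, the 18 genes at an adjusted p under 0.05, are 7 HSP70 and HSP90 chaperones and cochaperones, 4 ERAD genes, 3 genes of the sensor class, 3 disulfide enzymes and 1 lectin chaperone, and all 7 translocon and signal peptidase genes are open points between 0.14 and 0.28.

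Among the sensors and their transcription factor, 3 of 4 genes rose, and the fourth missed the threshold. Xbp1 (chr11:5520659-5525893, GRCm38), the transcription factor that drives chaperone and ERAD genes, stood at 237, 274 and 209.6 FPKM in Bach2-cKO libraries and at 119, 112 and 145 FPKM in WT libraries. The groups did not overlap, and the means were 240.2 ± 32.2 against 125 ± 17.5 FPKM (SD, n = 3 each), a ratio of 1.92. On the log2 scale it differed by 0.94 (SE 0.12, limma adjusted p = 0.00334), the highest of the 36. Atf6, the sensor that becomes a transcription factor when cut, stood at 25.4, 26.5 and 23.25 FPKM in Bach2-cKO libraries and at 14.5, 14.4 and 16.35 FPKM in WT libraries. It rose 1.66-fold on the ratio of means, with tight replicates in both groups (log2 fold change 0.70, SE 0.08, adjusted p = 0.00231). Ern1, which encodes IRE1, the kinase and nuclease that splices Xbp1 mRNA, stood at 26.8, 28.95 and 31.8 FPKM in Bach2-cKO libraries and at 21.2, 19.5 and 19.2 FPKM in WT libraries. It was the one sensor whose highest value was in Bach2-cKO replicate 3 (log2 fold change 0.52, SE 0.08, adjusted p = 0.00661). Eif2ak3, which encodes PERK, the kinase that slows translation, stood at 41.3, 45.7 and 43.4 FPKM in Bach2-cKO libraries and at 36.9, 40.2 and 32.1 FPKM in WT libraries. Its groups did not overlap, but the difference of 0.25 (SE 0.09) did not pass (adjusted p = 0.102).

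Promoters are shown next because ATF6 and XBP1 are known to act on a short element in chaperone promoters, the ER stress response element (ERSE). It is written here as CCAAT followed after 9 bases by CCACG, and was searched on both strands in windows of 250 bases before to 50 after each gene's start (RefSeq, GRCm38.p6). Of the 36 genes, 29 have a window in the table, 28 matched by symbol and Ero1l by a synonym; Atf6, Hyou1, Sec61a1, Ssr2, Manf, Derl1 and Sec11c do not. The element was in 9 of the 29 (31%), and in 39 of all 32851 windows (0.119%). By outcome it was in 7 of the 14 matched genes that rose and in 2 of the 15 that did not pass. Chaperone promoters are where the element was described, so this count is no test of the list. The longest stretch shown is that of Hspa5, the best known ERSE promoter; capitals mark both parts of the ERSE and, further upstream, TGAGTCA, the core of the MAF recognition element that BACH2 and AP-1 factors bind. The shorter stretches of 60 bases show the element in other genes that rose and, in Canx and Dnajc3, in genes that did not pass. All read 5′ to 3′ on the strand of the gene, so that CGTGG followed after 9 bases by ATTGG is the element on the other strand.
Hspa5, chr2:34771840-34772089, plus strand: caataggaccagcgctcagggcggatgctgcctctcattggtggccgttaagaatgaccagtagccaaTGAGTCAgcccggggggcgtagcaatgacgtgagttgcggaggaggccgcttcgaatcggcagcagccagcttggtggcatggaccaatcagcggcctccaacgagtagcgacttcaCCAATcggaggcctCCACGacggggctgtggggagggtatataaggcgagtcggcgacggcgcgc
Calr, chr8:84847055-84847114, minus strand: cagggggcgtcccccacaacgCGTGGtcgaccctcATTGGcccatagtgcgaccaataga
Hsp90b1, chr10:86705618-86705677, minus strand: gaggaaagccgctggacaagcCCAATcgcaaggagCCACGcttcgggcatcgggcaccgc
Creld2, chr15:88819499-88819558, plus strand: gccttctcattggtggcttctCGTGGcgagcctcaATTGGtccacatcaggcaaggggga
Pdia6, chr12:17266470-17266529, plus strand: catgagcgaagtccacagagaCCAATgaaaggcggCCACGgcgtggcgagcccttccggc
Derl3, chr10:75893221-75893280, plus strand: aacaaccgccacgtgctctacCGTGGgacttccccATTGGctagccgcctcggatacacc
Canx, chr11:50325780-50325839, minus strand: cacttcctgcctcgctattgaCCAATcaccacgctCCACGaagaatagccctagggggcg
Dnajc3, chr14:118937806-118937865, plus strand: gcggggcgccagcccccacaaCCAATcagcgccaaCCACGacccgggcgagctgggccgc

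The element lay at bases -65 to -47 from the start of Hspa5, -162 to -144 in Calr and -126 to -108 in Creld2, and Hsp90b1 held 2 copies, of which the one at -212 to -194 is shown. Syvn1 held it at -44 to -26. A second form, ERSE-II (ATTGG followed after 1 base by CCACG), was in 2 of the 29 windows, those of Dnajb11 and Herpud1, and in 0.0365% of all windows. TGACGTGG, the core of the unfolded protein response element, and TGATGCAAT, a core bound by ATF4 dimers, were in 0 of the 29, against 0.676% and 0.192% of all windows. TGAGTCA was in 2 of the 29 (6.9%), Hspa5 and Sec61b, against 5.2% of all windows. A match gives letters in a window and not occupancy by any factor.

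In the class of HSP70 and HSP90 chaperones of the ER lumen and genes grouped with them, 7 of 9 rose, with a median log2 fold change of 0.61. Hspa5 (chr2:34771970-34777547) encodes BiP, the HSP70 chaperone that binds unfolded proteins and holds the sensors inactive. It stood at 550.4, 567 and 456 FPKM in Bach2-cKO libraries and at 322, 343 and 385 FPKM in WT libraries. All 3 Bach2-cKO values were above every WT value, with means of 524 ± 60.1 against 350.2 ± 31.9 FPKM (SD, n = 3 each), a ratio of 1.498 (log2 fold change 0.58, SE 0.10, limma adjusted p = 0.0106). Hsp90b1, the HSP90 of the ER (GRP94), which folds Toll-like receptors and integrins, stood at 303, 309 and 262 FPKM in Bach2-cKO libraries and at 175, 196 and 198 FPKM in WT libraries. It rose by the same order as Hspa5 and with less spread (log2 fold change 0.61, SE 0.08, adjusted p = 0.0038). Hyou1, a large HSP70-like protein that releases nucleotide from BiP, stood at 98.5, 98.3 and 78.05 FPKM in Bach2-cKO libraries and at 57.5, 58.6 and 61.5 FPKM in WT libraries. Its groups were also apart (log2 fold change 0.61, SE 0.10, adjusted p = 0.00623).

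Further genes grouped with BiP differed among themselves in size and spread. Creld2, a disulfide isomerase-like protein made under ER stress, stood at 59.0, 58.0 and 44.45 FPKM in Bach2-cKO libraries and at 29.3, 32.2 and 33.7 FPKM in WT libraries, a ratio of means of 1.70 (log2 fold change 0.73, SE 0.12, limma adjusted p = 0.00635). Sdf2l1, which works with the J-protein DNAJB11 to keep clients soluble, stood at 86.4, 85.1 and 49.6 FPKM in Bach2-cKO libraries and at 36.3, 39.9 and 47.6 FPKM in WT libraries. Bach2-cKO replicate 3 lay just above the highest WT library, and the call was the least firm of this class (log2 fold change 0.79, SE 0.21, adjusted p = 0.045). Leaving out any single library other than Bach2-cKO replicate 3 ended it, with adjusted p up to 0.145. Manf, a secreted ER stress protein that stabilises BiP with its clients, stood at 142, 142 and 106 FPKM in Bach2-cKO libraries and at 74.8, 78.3 and 95.6 FPKM in WT libraries (log2 fold change 0.64, SE 0.14, adjusted p = 0.0204). Dnajb11, the J-protein ERdj3 that hands clients to BiP, stood at 134, 128 and 106 FPKM in Bach2-cKO libraries and at 84.75, 90.8 and 96.35 FPKM in WT libraries (log2 fold change 0.43, SE 0.10, adjusted p = 0.0253). Neither gene overlapped between groups, yet both calls were lost without Bach2-cKO replicate 1 or 2 or WT replicate 1 or 2, with adjusted p up to 0.0804 for Manf and 0.0944 for Dnajb11. Exons of Manf and of Hsp90b1 overlap other tested genes on both strands.

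The remaining J-proteins did not pass. Dnajb9 (ERdj4), which acts with BiP on IRE1 and in ERAD, stood at 14.1, 14.5 and 14.7 FPKM in Bach2-cKO libraries and at 12.2, 12.95 and 12.1 FPKM in WT libraries, apart by 0.20 (SE 0.07, limma adjusted p = 0.11). Dnajc3 (p58IPK), an inhibitor of PERK and a BiP partner, stood at 34.4, 31.45 and 30.04 FPKM in Bach2-cKO libraries and at 28.5, 26.3 and 30.6 FPKM in WT libraries, where the groups overlapped. Dnajc3 carries the ERSE shown above.

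**Figure D2:**
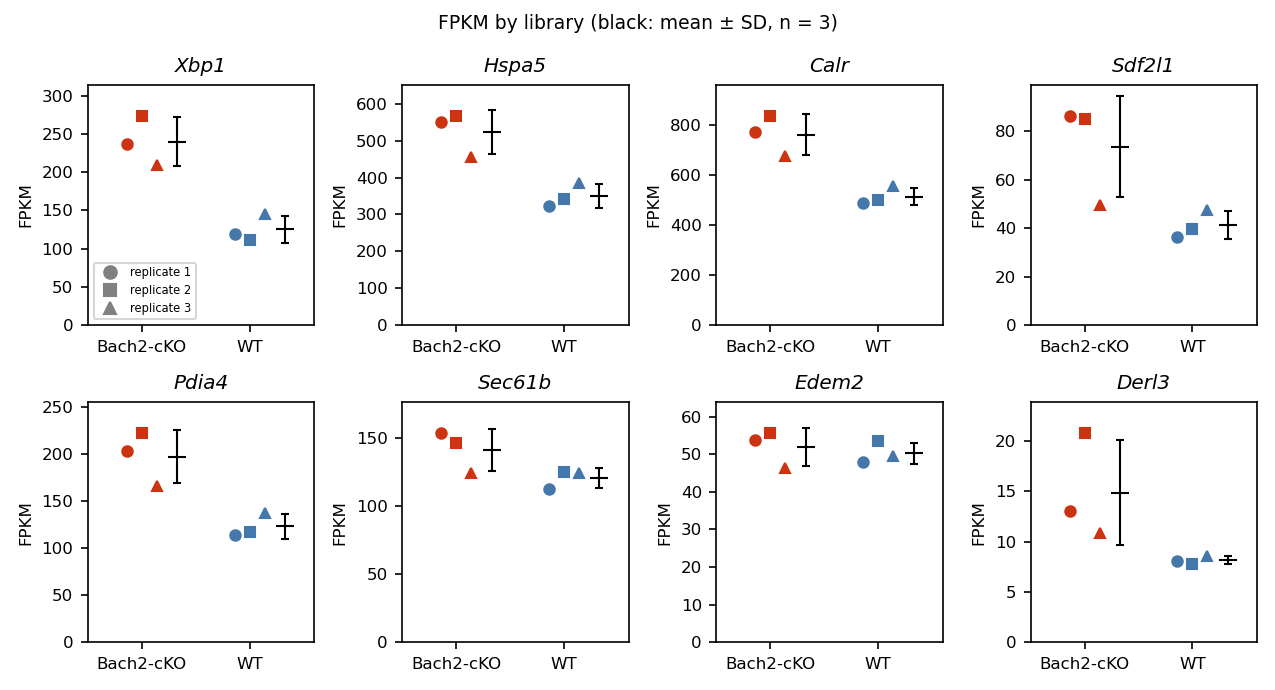
FPKM (y axis, from 0) of 8 genes, 1 or 2 of each role, by library, with Bach2-cKO left of WT; symbols mark replicates 1 to 3, and black bars the mean ± SD (n = 3). Bach2-cKO replicate 3 (triangle) is the lowest Bach2-cKO value in all 8 panels and lies below the highest WT value in Sec61b and Edem2.

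The lectin chaperones hold glycoproteins by their sugar until folded. Calr (calreticulin, the soluble one, which also stores calcium) had the highest level of the 36 in WT libraries. It stood at 774, 837 and 676 FPKM in Bach2-cKO libraries and at 489, 499.6 and 555 FPKM in WT libraries. The groups did not overlap, at 762 ± 81.1 against 514 ± 35.3 FPKM (SD, n = 3 each). The log2 fold change was 0.56 with an SE of 0.10 (limma adjusted p = 0.00832). Canx (calnexin, its membrane-bound relative) stood at 201, 212 and 179.9 FPKM in Bach2-cKO libraries and at 157, 157 and 177 FPKM in WT libraries. It did not overlap between groups either, but differed by 0.27 (SE 0.08) and did not pass (adjusted p = 0.0625).

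Enzymes that form and shuffle disulfide bonds rose in 3 of 5 genes. Pdia4 (ERp72), a disulfide isomerase, stood at 204, 223 and 166 FPKM in Bach2-cKO libraries and at 114.5, 117 and 138 FPKM in WT libraries. It rose 1.603-fold on the ratio of means without overlap (log2 fold change 0.67, SE 0.12, limma adjusted p = 0.0101). Pdia6, an isomerase that binds BiP and IRE1, stood at 277, 282 and 210.6 FPKM in Bach2-cKO libraries and at 161, 173 and 200 FPKM in WT libraries. Its groups were narrowly apart (log2 fold change 0.52, SE 0.13, adjusted p = 0.0346), and the call was lost without Bach2-cKO replicate 1 or 2 or WT replicate 1 or 2, with adjusted p up to 0.12. Ero1l, the oxidase that recharges the isomerases, was among the lowest of the 36 in level, at 17.3, 15.0 and 16.3 FPKM in Bach2-cKO libraries and at 10.6, 10.3 and 11.5 FPKM in WT libraries. Here Bach2-cKO replicate 3 was not the lowest of its group (log2 fold change 0.54, SE 0.09, adjusted p = 0.00681).

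Pdia3 (ERp57), the isomerase that works with calnexin and calreticulin and in the loading of MHC class I, stood at 594, 557 and 465 FPKM in Bach2-cKO libraries and at 438, 438 and 477 FPKM in WT libraries. Bach2-cKO replicate 3 was below the highest WT library, and the difference of 0.25 (SE 0.10) did not pass (limma adjusted p = 0.132). P4hb, the classical protein disulfide isomerase, stood at 210.9, 214 and 186 FPKM in Bach2-cKO libraries and at 169, 165 and 185 FPKM in WT libraries, just apart, with a difference of 0.23 (SE 0.08, adjusted p = 0.0808).

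By its median log2 fold change, the class of the channel and its partners was the lowest of the 6. Of the 7 genes of the translocon and the signal peptidase 0 passed by limma, 3 had an unadjusted p under 0.05, and their log2 fold changes lay between 0.14 and 0.28, with a median of 0.17. Ssr3, a subunit of the TRAP complex beside the channel, came nearest, at 136, 148 and 127 FPKM in Bach2-cKO libraries and 116, 105 and 118 FPKM in WT libraries (adjusted p = 0.0532). Its groups did not overlap, and it was the 1 gene of the 7 that passed by limma-voom on recovered reads (adjusted p = 0.0384). Sec61a1, the pore subunit, stood at 218, 201 and 184 FPKM in Bach2-cKO libraries and at 171, 161 and 175 FPKM in WT libraries, again apart (adjusted p = 0.067). Sec61b, a small channel subunit, stood at 153, 146 and 123.7 FPKM in Bach2-cKO libraries and at 112, 125 and 124 FPKM in WT libraries, and overlapped. Sec61g, Ssr2 and Sec11c, the last a catalytic subunit of the signal peptidase that removes leader peptides, also overlapped (adjusted p between 0.177 and 0.402). Ssr1 was apart by a small step, at 16.97, 16.7 and 15.85 FPKM in Bach2-cKO libraries and 14.5, 14.8 and 15.6 FPKM in WT libraries. Without Bach2-cKO replicate 3, 3 of the 7 passed.

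The ERAD genes divided, with 4 of 9 higher and 5 not passing. Those that rose were 2 subunits of the HRD1 ubiquitin ligase complex and 2 derlins. Sel1l, the adaptor of the ligase, stood at 52.3, 55.7 and 52.3 FPKM in Bach2-cKO libraries and at 42.75, 38.15 and 42.5 FPKM in WT libraries. It was apart with little spread (log2 fold change 0.37, SE 0.07, limma adjusted p = 0.0112), and without Bach2-cKO replicate 2 the adjusted p was 0.0521. Syvn1, the ligase HRD1 itself, stood at 76.9, 88.9 and 79.8 FPKM in Bach2-cKO libraries and at 57.6, 69.5 and 53.75 FPKM in WT libraries. The groups did not overlap (log2 fold change 0.44, SE 0.10, adjusted p = 0.029), but leaving out Bach2-cKO replicate 1 or 2 or WT replicate 1 or 3 took the adjusted p above the threshold, up to 0.103. An exon of Syvn1 overlaps Mrpl49 on the opposite strand. Derl1, a derlin that helps draw substrates out of the membrane, stood at 50.9, 53.6 and 56.45 FPKM in Bach2-cKO libraries and at 41.5, 42.0 and 44.1 FPKM in WT libraries (log2 fold change 0.33, SE 0.06, adjusted p = 0.0139). It was apart in every library, and the adjusted p was 0.057 without Bach2-cKO replicate 2 and 0.0615 without WT replicate 1.

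Derl3, the derlin known for secretory cells, was the lowest of the 36 in mean FPKM in WT libraries and uneven in Bach2-cKO libraries. It stood at 13.05, 20.8 and 10.8 FPKM in Bach2-cKO libraries and at 8.03, 7.80 and 8.59 FPKM in WT libraries. Bach2-cKO replicate 2 was far above the other libraries (log2 fold change 0.75, SE 0.21, limma adjusted p = 0.0492), and leaving out any library but Bach2-cKO replicate 3 ended the call, with adjusted p up to 0.1355. Derl2 stood at 50.35, 47.1 and 48.6 FPKM in Bach2-cKO libraries and at 45.1, 45.2 and 46.6 FPKM in WT libraries, apart by 0.09 (SE 0.06).

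The EDEM proteins trim mannose from misfolded glycoproteins to mark them for ERAD, and none passed. Edem1 stood at 139.5, 139 and 118 FPKM in Bach2-cKO libraries and at 116, 105 and 113 FPKM in WT libraries (log2 fold change 0.25, SE 0.08, limma adjusted p = 0.0841). Edem2 and Edem3 each differed by 0.04 (SE 0.08 and 0.12), with overlapping groups. Herpud1, a scaffold of the ligase complex that is raised by ER stress, stood at 118, 137 and 153 FPKM in Bach2-cKO libraries and at 105, 142 and 94.0 FPKM in WT libraries. Its spread within groups was among the widest in this class, and the difference of 0.27 (SE 0.16) did not pass (adjusted p = 0.298).

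Across libraries many of the 36 genes shared an order. Summed, they made 5548, 5723 and 4794 FPKM in Bach2-cKO libraries and 3795, 3956 and 4200.4 FPKM in WT libraries, which is 0.826%, 0.848% and 0.717% of all FPKM in Bach2-cKO libraries and 0.576%, 0.582% and 0.6235% in WT libraries. Bach2-cKO replicate 3 was the lowest Bach2-cKO library in 26 of the 36 (72.2%, against 35.9% of all genes tested). WT replicate 3 was the highest WT library in 25 of the 36 (69.4%, against 33.5% of all genes tested). The HSP70 and HSP90 class showed this most plainly, with medians over its 9 genes of 0.67, 0.70 and 0.36 above the WT mean in Bach2-cKO libraries and of -0.11, -0.01 and 0.09 in WT libraries, on the log2 scale. For the 9 ERAD genes the medians in Bach2-cKO libraries were 0.25, 0.32 and 0.34, with replicate 3 the highest. Without Bach2-cKO replicate 3, 25 of the 36 passed, the 18 and a further 7: Canx, Pdia3, P4hb, Sec61a1, Sec61b, Ssr3 and Edem1. Leaving out Bach2-cKO replicate 2 left 10 and leaving out WT replicate 1 left 11. Over all genes, 967 were higher with every library kept and 1224 without Bach2-cKO replicate 3. That count was 492 without Bach2-cKO replicate 2 and 494 without WT replicate 1. Xbp1, Atf6, Ern1, Hspa5, Hsp90b1, Hyou1, Creld2, Calr, Pdia4 and Ero1l passed whichever library was left out. With no filter on low values, which adds genes to the adjustment and to the variance estimate, 11 passed, and Hspa5 was then at 0.0517.

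**Figure D3:**
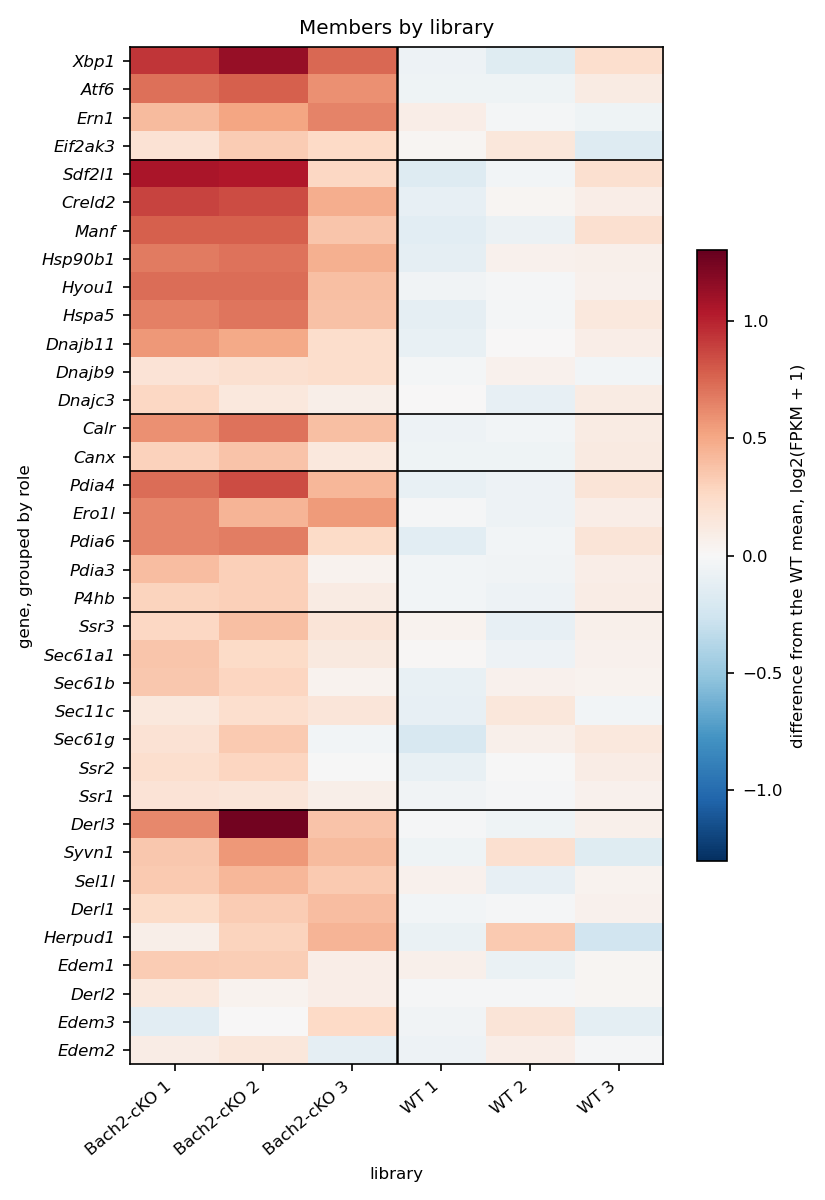
Difference of each library (x axis) from the WT mean on log2(FPKM + 1) (colour scale) for the 36 genes (y axis), grouped by role with Bach2-cKO libraries on the left. The chaperone block is paler in Bach2-cKO replicate 3 than in replicates 1 and 2, and Derl3 is darkest in Bach2-cKO replicate 2.

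Other genes of the ER pathway, taken as 6 lists that leave out the 36, gave fewer calls. Of 142 tested, 15 (10.6%) were higher and 0 lower, beside 7.02% and 8.31% of all genes tested, with a median log2 fold change of 0.08. The share higher, here and in most of the single lists, was near that of all genes tested and is not a result about these lists. In 50 of the 142 all 3 Bach2-cKO libraries lay above all 3 WT libraries (35.2%, against 15.5% of all genes tested). They all lay below in 9 (6.34%, against 20.1%). These shares describe the lists and do not test them. By unadjusted p under 0.05, 44 of the 142 were higher and 6 lower, with no share of all genes tested to set beside them. The signalling list outside the 36 held 4 of 16 higher, Chac1, Trib3, Atf4 and Ppp1r15b. Ddit3 and Ppp1r15a, both known targets of ATF4, did not pass and stood at -0.10 (adjusted p = 0.714) and -0.04 (adjusted p = 0.899); both were named after their values were seen. Chac1, a glutathione-degrading target of ATF4, stood at 7.23, 11.5 and 13.5 FPKM in Bach2-cKO libraries and at 3.19, 4.23 and 3.73 FPKM in WT libraries (log2 fold change 1.28, SE 0.21, limma adjusted p = 0.0073). Trib3, a pseudokinase target of the same factor, stood at 18.25, 23.3 and 31.8 FPKM in Bach2-cKO libraries and at 13.2, 14.2 and 11.3 FPKM in WT libraries (log2 fold change 0.85, SE 0.19, adjusted p = 0.0228). Atf4 itself stood at 153, 175 and 187 FPKM in Bach2-cKO libraries and at 122, 141 and 117 FPKM in WT libraries (log2 fold change 0.43, SE 0.10, adjusted p = 0.0254). In these 3 genes Bach2-cKO replicate 3 was the highest of its group.

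Among other folding enzymes 2 of 26 rose, of which Ero1lb, the second oxidase, stood at 30.6, 36.5 and 25.5 FPKM in Bach2-cKO libraries and at 15.45, 17.3 and 16.9 FPKM in WT libraries (log2 fold change 0.85, SE 0.13, limma adjusted p = 0.00488). Fkbp2, a prolyl isomerase, was the other (0.40, adjusted p = 0.0181). On the way out of the ER, 3 of 30 rose, led by Sec24d, a cargo subunit of COPII coats, at 24.75, 21.5 and 20 FPKM in Bach2-cKO libraries and 12.3, 11.0 and 14.4 FPKM in WT libraries (0.77, adjusted p = 0.00587). The lists of signal recognition and translocon (2 of 22), N-glycosylation (1 of 21) and other ERAD (3 of 27) had medians of 0.01, 0.13 and -0.0021, and their genes with the smallest p were Srp14 (0.31, adjusted p = 0.022), Magt1 (0.44, adjusted p = 0.0476) and Selenos (0.39, adjusted p = 0.0163). Of 16 chaperones of the cytosol and mitochondria, 1 was higher, Hspa9 of the mitochondrial matrix (0.33, adjusted p = 0.0245), and 0 were lower.

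Some markers of plasma cells, B cells and CD8 T and NK cells were also higher in Bach2-cKO libraries. Of 10 tested plasma cell markers that lie outside the ER and T cell lists, 4 were higher (Jchain, Mzb1, Ighm and Igkc) and 0 lower. Iglv1 also lies outside those lists but was not among the 10, and it did not pass (0.57, limma adjusted p = 0.0977). By log2 fold change 8 of the 10 lay above 0, and Igha, at -0.63, did not pass. Their list summed to 4111 to 5206 FPKM in Bach2-cKO libraries and 2375 to 2998 FPKM in WT libraries. Most of the Bach2-cKO mean of 4493 FPKM came from Ighm and Igkc, with means of 2241 and 1532 FPKM. Jchain, the joining chain of secreted antibody, stood at 38.45, 49.1 and 33.7 FPKM in Bach2-cKO libraries and at 14.6, 11.4 and 19.0 FPKM in WT libraries, with replicate 3 the lowest of the Bach2-cKO and the highest of the WT libraries. The other 3 called markers shared this order in part or not at all. Mzb1 and Igkc were also lowest among Bach2-cKO libraries in replicate 3, and Ighm in replicate 1. Among WT libraries, Mzb1, Ighm and Igkc were highest in replicate 2. Ighg1 and Ighg2c, which did not pass, had the order of Jchain in both groups. Bach2-cKO replicate 3 was the lowest Bach2-cKO library in 6 of the 10 (60%, against 35.9% of all genes tested). Mzb1, itself an ER cochaperone of B lineage cells, stood at 146, 169.9 and 113 FPKM in Bach2-cKO libraries and at 59.3, 71.6 and 66.1 FPKM in WT libraries. Of the defining plasma cell markers, Tnfrsf17 was under 1 FPKM in all 6 libraries, and Sdc1 stood at 8.35, 6.42 and 10.45 FPKM in Bach2-cKO libraries and at 7.44, 9.70 and 8.85 FPKM in WT libraries, which did not pass. B cell markers, of cells that a B220-negative gate leaves out, summed to 1695 to 2182 FPKM in Bach2-cKO libraries and 1235 to 1717 FPKM in WT libraries, with 5 of 12 higher and 0 lower. CD8 T and NK cell markers summed to 176.7 to 337 FPKM in Bach2-cKO libraries and 107 to 134 FPKM in WT libraries, with 5 of 6 higher. T cell and Treg markers summed to 2709 to 3165 FPKM in Bach2-cKO libraries and 2708 to 3135 FPKM in WT libraries. Their median log2 fold change was -0.21, and 3 of the 10 tested lay above 0. All 3 Bach2-cKO libraries lay below all 3 WT libraries in 4 of the 10 (40%, against 20.1% of all genes tested). They all lay above in 2 (20%, against 15.5%). Means of Il2ra and Ctla4 were 482 and 651.5 FPKM in Bach2-cKO libraries, against 256 and 512.5 FPKM in WT libraries. Among the 10 tested, Il2ra was higher and Cd3d and Cd3g were lower, all 3 named after their values were seen. Myeloid markers summed to 32.2 to 36.2 FPKM in Bach2-cKO libraries and 27.8 to 32.4 FPKM in WT libraries, with Flt3 lower and 0 of 4 higher. Red cell markers summed to 204.1 to 1033 FPKM in Bach2-cKO libraries and 182 to 516 FPKM in WT libraries, and 0 of 5 passed.

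With the mean log2 level of the plasma cell markers as a covariate in the same limma fit, 0 of the 36 passed, 9 had an unadjusted p under 0.05 in the higher direction and 0 in the lower, and 30 had a log2 fold change above 0. The median of the 36 was then 0.14 in place of 0.30, and among the 18 that had passed the log2 fold change was a median 0.44 times and the SE 1.24 times its earlier value. In the sensor class, Ern1 stood at 0.72 (SE 0.13), Xbp1 at 0.58 (SE 0.18), Atf6 at 0.50 (SE 0.13) and Eif2ak3 at 0.27 (SE 0.18). The chaperones and disulfide enzymes differed among themselves. Hspa5 stood at 0.23 (SE 0.12), Pdia6 at 0.04 and Sdf2l1 at -0.08, but Hsp90b1 at 0.35 (SE 0.11) and Ero1l at 0.57 (SE 0.16). With the B cell markers in its place 0 of the 36 passed, and 14 had an unadjusted p under 0.05 in the higher direction and 0 in the lower. The median was 0.31 and the SE of those 18 a median 1.825 times its earlier value. In that fit Ern1 stood at 0.54, Xbp1 at 0.94, Atf6 at 0.69 and Eif2ak3 at 0.04. Hspa5 stood at 0.52 (SE 0.19), Pdia6 at 0.46 (SE 0.23) and Sdf2l1 at 0.70 (SE 0.39). Over all genes, 46 and 71 (plasma cell score) or 73 and 82 (B cell score) were then higher and lower by adjusted p, beside 967 and 1144 without a score. Shares of all genes at the unadjusted threshold were not counted. The plasma cell score includes Mzb1, itself an ER cochaperone. It stood at 6.10, 6.19 and 5.59 in Bach2-cKO libraries and at 5.29, 5.36 and 5.42 in WT libraries. Score and label can therefore not be told apart well in 6 libraries. As a mean of log2 levels, the score gives low genes the same weight as Ighm and Igkc. In Bach2-cKO libraries Ighg1 stood at 46.1, 38.71 and 10.16 FPKM, Igha at 24.63, 14.97 and 3.739 and Ighg2c at 19.91, 23.85 and 5.701. In WT libraries Ighg1 stood at 2.997, 10.97 and 40.63 FPKM and Igha at 46.16, 14.23 and 8.947. None of these passed. Replicate 3 was the lowest Bach2-cKO library in 6 of the 10 tested. How far such low genes set the smaller log2 fold changes was not tested. Which cells carry the ER messages was not tested.

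**Figure D4:**
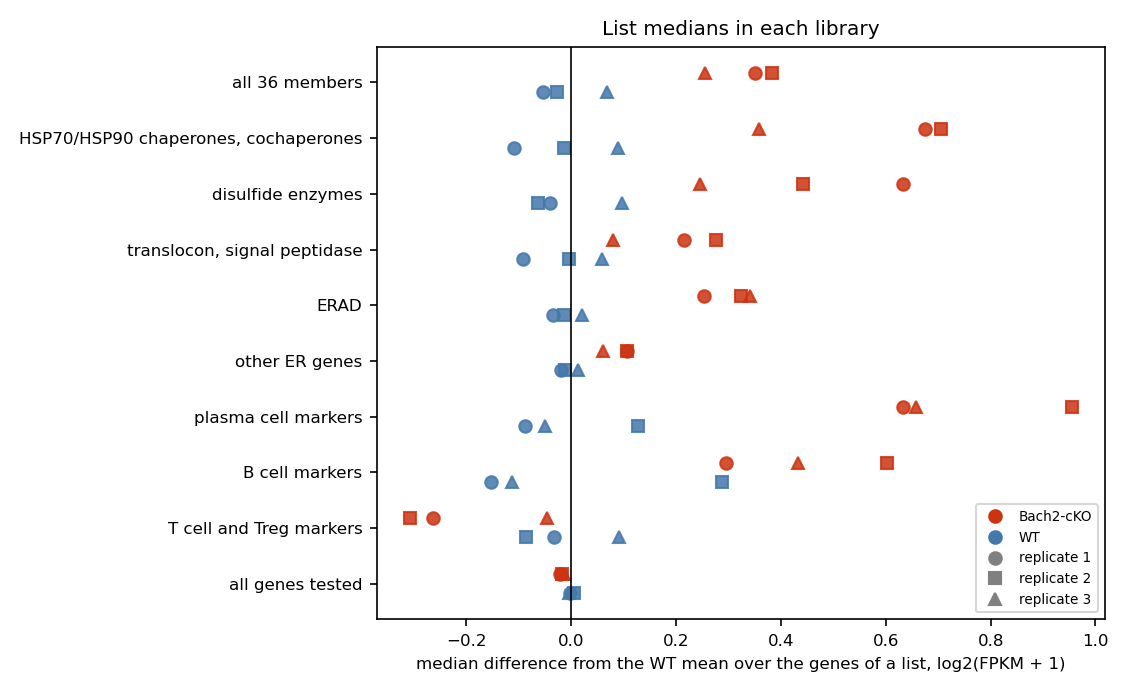
Median over the genes of each list (y axis) of the difference from the WT mean on log2(FPKM + 1) (x axis) in each library; symbols mark replicates, with Bach2-cKO points above WT points in each row. Among the lists drawn, which leave out the sensors, the lectin chaperones and the CD8 T and NK, myeloid and red cell markers, the Bach2-cKO points of the 36 genes lie at 0.26 to 0.38, and all genes tested lie near 0.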

How the data were processed

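Poly(A) RNA of 6 libraries was analysed, 3 Bach2-cKO and 3 WT, grouped by the genotype in the labels. The authors deposited FPKM per gene, in 1 file per library and 1 table of the series, and all 6 files equal their columns in it. The tools named per the submitters' processing notes are featureCounts 1.5.0-p3 and HISAT2 2.0.5, with mm9 as build. For the annotation, filters and use of strand, nothing is given in the sources used here. Positions in the deposited table equal those of GENCODE M21 for 28 of the 36 genes and are therefore given as GRCm38.

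The filter kept genes that reached 1 FPKM in at least 3 libraries. Values were taken as log2(FPKM + 1), with a pseudocount of 1 that shrinks the fold changes of low genes. The test was limma 3.58.1 in R 4.3.3 (intensity trend, no covariate, two-sided), with Benjamini-Hochberg adjustment over all genes tested. It was checked on simulated data. Members and lists were chosen with earlier results of these data known. The genes named are all 36, in each other ER list up to 3 with the smallest p, in each marker list up to 2 with the highest mean, and Bach2; others (Ppp1r15b, Ddit3, Ppp1r15a, Hspa9, Foxp3 and markers beyond those 2) were named after their values were seen.

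FPKM steps gave whole reads (tolerance 0.001 reads) for all 28530 genes above 0, 11267 with the exon length of the annotation and 17263 with another length; 1 read in 1 kb is 0.0228 to 0.0361 FPKM. These reads served for depth and for limma-voom. Levels are relative to each library's total. Alternatives were other filters, pseudocount, scalings and variance estimates, marker scores, a replicate block and leaving out each library. Exons of 6 of the 36 overlap a tested gene on the opposite strand. Chi-square tests between replicates (10.4 to 23.7 per degree of freedom) were far above sampling noise. Protein sequences were not used here. Python 3.11.15 with Matplotlib 3.10.9 drew the figures.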

Additional observations from a re-analysis of the deposited data

How the results depend on the processing

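The 18 genes of the 36 that were higher were also called by limma-voom on recovered reads, with the filter at 5 FPKM, a pseudocount of 0.1, median-ratio scaling and quantile normalization, and 0 of the 36 were lower in any alternative run. Of 576 log2 fold changes of the 36 over the alternatives, 562 were above 0. With no filter on low values 11 of the 36, 5 other ER genes, and over all genes 501 higher and 681 lower passed, in place of 18, 15, 967 and 1144. The plasma cell score left 0 of the 36, 0 other ER genes, 46 higher and 71 lower, a median of 0.14 for the 36, and Sdf2l1 at -0.075. The B cell score left 0, 0, 73 and 82. Other ER genes at an unadjusted p under 0.05 were then 11 higher and 2 lower, and 14 and 3 with the plasma cell score. No share of all genes was counted at that unadjusted threshold. Leaving out 1 library gave 10 to 25 of the 36, 3 to 27 other ER genes higher and 0 to 2 lower, and 492 to 1224 higher and 560 to 1375 lower over all genes. Why the counts moved with the scores was not tested. A robust variance estimate left 16 of the 36.

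The replicate number as a block gave 13 of the 36, 6 other ER genes, 625 higher and 657 lower. The labels do not say that a number marks a shared mouse or day, and deviations from the group means correlated across genes at -0.053, 0.006 and -0.215 for same-numbered libraries, so the numbers were not taken as pairing. No library correlated best with the one of its own number.

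With 3 libraries a group, the smallest log2 fold change that passed among the 36 was 0.33, of Derl1. Depth limits none of the 36, the fewest reads being 318.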
